A study of Mus musculus with 12 samples.

Results

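The genes described here are the cytokines and receptors of the interleukin-6 (IL-6) family that cultured mouse synoviocytes express: the ligand genes Il6, Il11, Lif and Clcf1, the signalling receptor genes Il6st, Osmr and Lifr, and the ligand-binding receptor genes Il6ra and Il11ra1. They were taken by name from the deposited table, which held all 9 among 36875 gene symbols. All 9 passed the filter on low counts, which left 15049 genes.

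RNA was sequenced from fibroblast-like synoviocytes, which are fibroblasts that line the joint, grown in culture, in 3 groups of 4 libraries each. The resolution group (DOX OFF in the sample descriptions) came from animals given 3 weeks of doxycycline (1 mg/ml, in drinking water with 5% sucrose), after which it was withdrawn. The inflammation group (DOX ON) came from animals on the same 3-week course, and the homeostasis group (WT) from animals on 5% sucrose water alone for 3 weeks. The protocol shared by all libraries speaks of mice with TNF-induced inflammatory arthritis, while the descriptions call the homeostasis animals WT. The labels do not state the alleles carried, the promoter of any TNF transgene, the strain, age and sex of the animals, or the time from withdrawal to harvest. The cells were cultured before poly(A) RNA was harvested, and the passage is not given. Whether the 4 replicates within each group are separate animals or separate cultures is not stated, so the p-values measure the spread between these libraries, which may be technical. The series asks how activated synoviocytes may impair endothelial cells while the arthritis resolves.

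Nearly all cytokines of this family signal through the shared receptor chain encoded by Il6st, known as gp130. IL-6 and IL-11 first bind their own receptor chains, encoded by Il6ra and Il11ra1, and then engage pairs of gp130. Leukaemia inhibitory factor (LIF) uses gp130 paired with the chain encoded by Lifr, and oncostatin M in mice uses gp130 paired with the chain encoded by Osmr. The receptors activate JAK kinases and the transcription factor STAT3, whose target Socs3 damps the signal. A cell that lacks Il6ra can still respond to IL-6 bound to soluble receptor from other cells, which is called trans-signalling. Synovial fibroblasts are a known source of IL-6 in arthritis, and IL-11 and LIF are also made by stromal cells.

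Totals ran from 18120745 to 34971537 counts per library. Levels are in CPM (counts scaled to library size) normalized by the trimmed mean of M-values (TMM), given as mean ± SD with n = 4. Adjusted p-values are from the quasi-likelihood test of edgeR on all 12 libraries, with Benjamini-Hochberg adjustment over the 15049 genes and a threshold of 0.05. Fits against homeostasis 1 and 2 alone, or 3 and 4 alone, used a split chosen with earlier results of these data known. Their adjusted p-values describe how far a value depends on the controls and are no independent test. The summed level of 10 fibroblast markers was 6347 to 11503 CPM in resolution, 15845 to 18182 CPM in inflammation and 20784 to 21674 CPM in homeostasis, and none of the 10 was at 0 in any group. Singly they moved both ways. In resolution against inflammation 2 rose and 3 fell (8.52% and 7.64% of all tested genes). Against homeostasis 2 rose and 6 fell in resolution (27.5% and 25.8%), and 2 rose and 5 fell in inflammation (19% and 18.3%). The summed level of the 11 macrophage markers in the table, of 12 listed, was 58.1 to 68.0 CPM in resolution, 583 to 667 CPM in inflammation and 103 to 136 CPM in homeostasis. No macrophage marker was at 0 throughout a group. Chondrocyte markers (5) summed to 62.2 to 90.5 CPM in resolution, 34.3 to 43.9 CPM in inflammation and 865 to 1120 CPM in homeostasis, with none at 0 in a whole group. Neutrophil markers (4) summed to 14.1 to 20.3, 11.4 to 22.4 and 2.23 to 4.67 CPM in the same order of groups, with Elane at 0 in inflammation and S100a9 and Elane at 0 in homeostasis. The fibroblast, macrophage, chondrocyte and neutrophil sums thus differed between homeostasis and both other groups without overlap, beside every comparison with homeostasis given here. Between resolution and inflammation the fibroblast, macrophage and chondrocyte sums also differed without overlap, while the neutrophil sums overlapped. The part of these differences in the results of the 3 comparisons was not tested. The Y-linked gene Ddx3y had 0 counts in resolution, 3 in inflammation and 2150 in homeostasis, so every comparison against homeostasis also set libraries with Y-linked transcripts against libraries almost without them. Xist stood at 174 ± 67.0 CPM in resolution, 110 ± 35.3 CPM in inflammation and 10.8 ± 3.28 CPM in homeostasis. The doxycycline course, the WT description of the homeostasis animals and these differences cannot be told apart. Tnf was at 0.308 ± 0.143 CPM in resolution, 1.02 ± 0.518 CPM in inflammation and 3.97 ± 2.20 CPM in homeostasis. Base composition also moved with the groups. For each 10 percentage points of GC in a transcript, levels deviated from the mean of all libraries by -0.47 to 0.05 (log2) in resolution, -0.05 to 0.08 in inflammation and 0.09 to 0.52 in homeostasis. Resolution 2, at 0.05, lay apart from the other resolution libraries at -0.47 to -0.32. Homeostasis 1 and 2 stood at 0.09 and 0.13, and homeostasis 3 and 4 at 0.35 and 0.52. The split of the homeostasis libraries used below thus also divided them by base composition, whose part was not tested.

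Per kilobase of transcript, Il6 had the highest level of the 9 genes in every group and Il6ra the lowest. Il6 stood at 174 ± 25.1 CPM per kb in resolution, 152 ± 19.0 CPM per kb in inflammation and 142 ± 50.7 CPM per kb in homeostasis. Il6ra stood at 0.413 ± 0.0448, 0.391 ± 0.0896 and 0.531 ± 0.138 CPM per kb in the same groups. The libraries carried abundant RNA for the ligand and little for its specific receptor chain, while RNA for the shared chain Il6st was at 31.5 ± 6.97, 22.5 ± 6.90 and 44.0 ± 11.4 CPM per kb. Lifr was the other scarce member, at 1.23 ± 0.225, 0.581 ± 0.140 and 0.846 ± 0.158 CPM per kb. The remaining genes lay close together. In resolution the order after Il6 was Il6st, Osmr, Il11, Il11ra1, Lif and Clcf1, in which each gene overlapped the next over libraries. In inflammation Il11 was second at 70.0 ± 7.56 CPM per kb, clear of its neighbours, and Il11ra1, Il6st, Lif, Clcf1 and Osmr followed, each overlapping the next. In homeostasis Il11 and Il6st overlapped, Il6st lay clear of Osmr, and Osmr, Lif, Il11ra1 and Clcf1 overlapped in turn. Lifr and Il6ra overlapped in inflammation and in homeostasis but not in resolution.

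**Figure D1:**
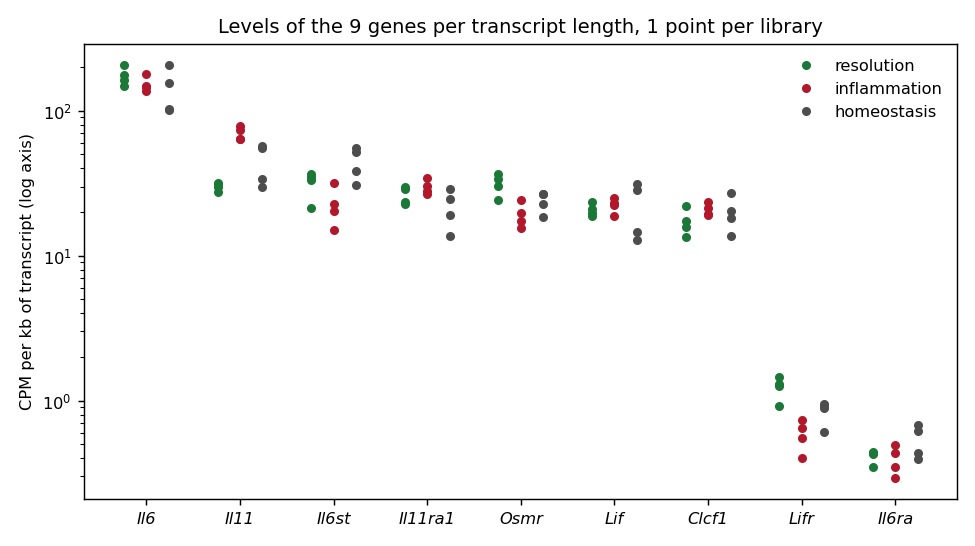
Level of each gene in CPM per kb of its longest transcript, on a log axis, with 1 point per library for resolution, inflammation and homeostasis. Il6 lies above 100 CPM per kb in all 12 libraries, and Lifr and Il6ra lie apart at the bottom.

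Among the ligands, Il11 was higher in inflammation than in both other groups, while no difference in Il6, Lif or Clcf1 passed the test. Il6 encodes the cytokine that gives the family its name and lies on chromosome 5 (5:30013114 to 30019981 on GRCm38, plus strand, protein-coding). Resolution libraries 1 to 4 held 345, 414, 485 and 384 CPM of Il6, inflammation libraries 341, 321, 422 and 345 CPM, and homeostasis libraries 238, 242, 488 and 365 CPM. The 3 groups overlapped, and the highest and the lowest of the 12 values were both homeostasis libraries. The log2 fold change was 0.29 ± 0.19 SE in resolution against homeostasis (adjusted p = 0.206), 0.10 ± 0.19 SE in inflammation against homeostasis (adjusted p = 0.709) and 0.19 ± 0.19 SE in resolution against inflammation (adjusted p = 0.507). Homeostasis 1 and 2 averaged 240 CPM and homeostasis 3 and 4 averaged 426 CPM, so the choice of control libraries decided the sign. Against homeostasis 1 and 2 alone the log2 fold change was 0.75 in resolution (adjusted p = 6.46e-04) and 0.58 in inflammation (0.00745), and against homeostasis 3 and 4 alone it was -0.06 (0.774) and -0.23 (0.276). Without homeostasis 3 Il6 passed in resolution (0.53, adjusted p = 0.0156). The Il6 transcript has a GC content of 39.3%, the lowest of the 9, and with offsets for GC content and transcript length, an alternative added after the data were seen, the log2 fold change in resolution against homeostasis was -0.52 (adjusted p = 0.0369). The sign of the Il6 difference from homeostasis thus turned with the control libraries used and with the offsets.

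Promoter windows of 250 bases before to 50 after the transcription start were available from RefSeq (GRCm38.p6) for 8 of the 9 genes, in 11 windows. They were searched on both strands for a STAT motif (TTCNNNGAA), an AP-1 motif (TGANTCA), a CRE motif (TGACGTCA) and the NF-kB motif. The first 3 patterns read the same on both strands, and none of the matches below overlap. Of all 32851 windows, 8.30% held the STAT motif, 7.81% the AP-1 motif, 1.79% the CRE motif and 4.51% the NF-kB motif. The windows of Il6, the most abundant member, of Il11, the most changed ligand, and of Osmr, a receptor that changed, are printed 5′ to 3′ with matches in capitals.
Il6, chr5:30012864-30013163, plus strand: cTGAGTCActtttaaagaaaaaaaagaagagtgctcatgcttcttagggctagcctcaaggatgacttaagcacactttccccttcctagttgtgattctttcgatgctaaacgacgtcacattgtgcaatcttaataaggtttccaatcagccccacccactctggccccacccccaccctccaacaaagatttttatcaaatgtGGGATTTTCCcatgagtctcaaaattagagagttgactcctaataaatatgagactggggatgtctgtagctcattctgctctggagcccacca
Il11, second window, chr7:4778092-4778391, minus strand: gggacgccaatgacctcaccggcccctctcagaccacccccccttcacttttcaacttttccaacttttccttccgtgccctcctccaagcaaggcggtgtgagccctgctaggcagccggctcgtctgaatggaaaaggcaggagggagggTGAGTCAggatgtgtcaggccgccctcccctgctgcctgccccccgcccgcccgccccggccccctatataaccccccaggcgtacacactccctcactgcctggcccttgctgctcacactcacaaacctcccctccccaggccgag
Osmr, chr15:6874264-6874563, minus strand: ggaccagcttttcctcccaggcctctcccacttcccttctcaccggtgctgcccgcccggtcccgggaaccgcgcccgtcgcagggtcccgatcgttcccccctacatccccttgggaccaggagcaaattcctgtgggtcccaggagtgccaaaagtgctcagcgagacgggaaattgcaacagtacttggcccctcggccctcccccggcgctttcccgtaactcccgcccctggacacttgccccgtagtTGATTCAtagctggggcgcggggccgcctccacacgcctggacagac
The Il6 window held an AP-1 match from position -249 to -243 and an NF-kB match from -44 to -35, counted from the start site. Il11 had 1 AP-1 match in its second window, from -98 to -92, and none of the 4 motifs in its first. Osmr held an AP-1 match from 3 to 9, and Lif (chr11:4257318-4257617, plus strand) one from -228 to -222. These letters were absent from the windows of Il6st, Lifr, Il6ra and Il11ra1. A match is a description of the sequence, and no binding was measured.

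Il11 encodes interleukin-11, a stromal cytokine known for its part in fibrosis, and lies on chromosome 7 (7:4772373 to 4782859, minus strand, protein-coding). It stood at 58.1, 60.9, 62.2 and 53.7 CPM in resolution 1 to 4, at 124, 124, 154 and 143 CPM in inflammation 1 to 4, and at 66.4, 57.6, 108 and 112 CPM in homeostasis 1 to 4. Every inflammation library lay above every library of the other groups, and homeostasis was split between levels near resolution and levels nearer inflammation. Il11 was 0.43 times as high in resolution as in inflammation (edgeR log2 fold change -1.22 ± 0.18 SE, adjusted p = 9.29e-05). This fall kept its call under all 23 alternatives (log2 -1.27 to -1.11). Inflammation libraries held 1.59 times the homeostasis level (0.67 ± 0.18 SE, adjusted p = 0.00625). That rise was not called with homeostasis 3 and 4 as the sole controls (0.33, adjusted p = 0.0640) and was called under the other 22 alternatives, with a value of 1.14 against homeostasis 1 and 2 alone. In resolution Il11 was below homeostasis (-0.55 ± 0.18 SE, adjusted p = 0.0137), but not beyond the threshold without homeostasis 3 or without homeostasis 4 (highest adjusted p = 0.0616), with homeostasis 1 and 2 alone (-0.09, 0.649) or with GC and length offsets (-0.29, 0.169). Against homeostasis 3 and 4 alone it was -0.90 (1.64e-05). Macrophage markers moved with Il11, since their summed level was also highest in inflammation and lowest in resolution. Their part in the result was not tested. In bulk RNA, fewer cells of a type and less RNA per cell cannot be told apart.

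Lif and Clcf1 showed no difference that passed the test. Lif encodes leukaemia inhibitory factor (11:4257557 to 4272514, plus strand). Its levels were 79.5, 95.1, 84.5 and 75.5 CPM in resolution, 75.6, 89.5, 101.2 and 93.1 CPM in inflammation, and 51.4, 58.4, 126 and 115 CPM in homeostasis. The resolution and inflammation libraries all lay inside the range of homeostasis, in which libraries 1 and 2 were low and 3 and 4 high. The log2 fold change was -0.06 ± 0.22 SE in resolution against homeostasis (adjusted p = 0.825), 0.04 ± 0.22 SE in inflammation against homeostasis (0.909) and -0.10 ± 0.22 SE in resolution against inflammation (0.771). Against homeostasis 1 and 2 alone Lif was higher in resolution (0.60, adjusted p = 0.00394) and in inflammation (0.71, 0.00140), and against homeostasis 3 and 4 alone it was lower in both (-0.51, 0.00475, and -0.40, 0.0361). Since libraries 1 and 2 were the low ones and 3 and 4 the high ones, these signs followed from the split.

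Clcf1 encodes cardiotrophin-like cytokine factor 1 (19:4214238 to 4223490, plus strand). It stood at 29.2, 40.8, 31.8 and 25.0 CPM in resolution, 36.1, 39.2, 43.6 and 35.2 CPM in inflammation, and 33.8, 25.4, 37.7 and 50.2 CPM in homeostasis. All 3 groups overlapped, and homeostasis spanned the widest range. The log2 fold change was -0.21 ± 0.19 SE in resolution against homeostasis (adjusted p = 0.349), 0.07 ± 0.19 SE in inflammation against homeostasis (0.801) and -0.28 ± 0.19 SE in resolution against inflammation (0.302). With homeostasis 3 and 4 as the sole controls Clcf1 was lower in resolution (-0.46, adjusted p = 0.0364).

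**Figure D2:**
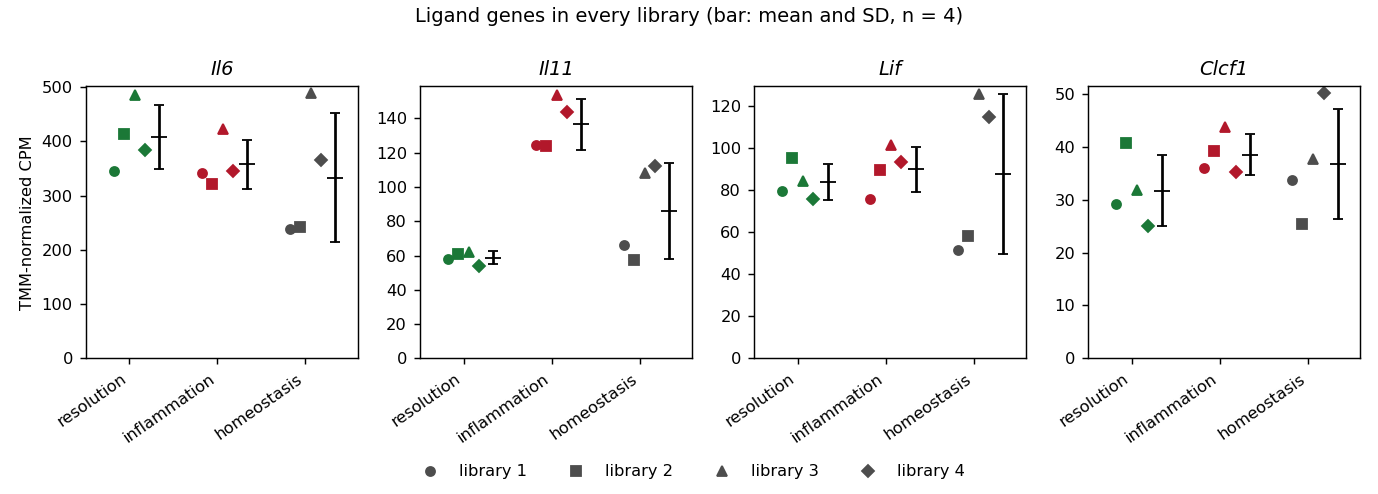
CPM of the 4 ligand genes in each library, with resolution, inflammation and homeostasis from left to right, a symbol for each library number, and a bar for the mean and SD (n = 4). Inflammation stands above both other groups for Il11, at 124 to 154 CPM, while homeostasis splits into lower libraries 1 and 2 and higher libraries 3 and 4 for Il11 and Lif.

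The means of the signalling receptor genes were lowest in inflammation, although not every difference passed the test. Osmr and Lifr were higher in resolution than in inflammation in every library, and Il6st was lower in inflammation than in homeostasis. The marker sums given above also differed between these groups, and their part in the receptor levels was not tested. Il6st encodes gp130, the chain used by the ligands described here (13:112464070 to 112510086, plus strand, protein-coding). Resolution libraries held 289, 184, 302 and 317 CPM, inflammation libraries 131, 176, 199 and 275 CPM, and homeostasis libraries 478, 449, 335 and 265 CPM. Inflammation 4 overlapped the lowest homeostasis library, and resolution 2 fell among the inflammation values. Il6st fell in inflammation to 0.51 times the homeostasis level (log2 fold change -0.97 ± 0.22 SE, edgeR adjusted p = 0.00168). The call did not hold against homeostasis 3 and 4 alone (-0.60, adjusted p = 0.0816) and held under the other 22 alternatives. Resolution lay between, and neither its difference from homeostasis (-0.48 ± 0.22 SE, adjusted p = 0.0654) nor that from inflammation (0.49 ± 0.22 SE, adjusted p = 0.129) passed. The first passed without homeostasis 4 (-0.62, adjusted p = 0.0216), with homeostasis 1 and 2 alone (-0.77, 0.0142), with no expression filter (-0.50, 0.00426) and with GC and length offsets (-0.72, 8.47e-05). The second passed without resolution 2 (0.63, adjusted p = 0.0317), without inflammation 4 (0.69, 0.0408) and with no expression filter (0.48, 0.0199).

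Osmr encodes the oncostatin M receptor chain (15:6813577 to 6874969, minus strand, protein-coding). Its levels were 166, 134, 202 and 186 CPM in resolution, 85.4, 95.6, 108 and 134 CPM in inflammation, and 146, 146, 126 and 102 CPM in homeostasis. All resolution libraries lay above all inflammation libraries, although resolution 2 and inflammation 4 came within 1 CPM of each other. Osmr rose 1.63-fold in resolution against inflammation (log2 fold change 0.70 ± 0.16 SE, adjusted p = 0.00605), a call that held under all 23 alternatives (0.46 to 0.83). The smallest of these values was that with GC and length offsets (adjusted p = 8.58e-04). Osmr was also higher in resolution than in homeostasis (0.41 ± 0.16 SE, adjusted p = 0.0405), and this call was lost in 9 of 23 alternatives. These included the omission of resolution 1, 3 or 4, inflammation 3, or homeostasis 3 or 4 (highest adjusted p = 0.131), homeostasis 1 and 2 alone (0.22, 0.321) and the GC and length offsets (0.07, 0.479). Inflammation against homeostasis gave -0.30 ± 0.16 SE (adjusted p = 0.160), and passed with GC and length offsets (-0.38, 0.00131) and with homeostasis 1 and 2 alone (-0.46, 0.0450).

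Lifr encodes the LIF receptor chain and lies near Osmr on chromosome 15 (15:7090614 to 7197489, plus strand, protein-coding). It was a low gene, at 12.1, 8.92, 12.5 and 14.1 CPM in resolution, 3.88, 7.04, 5.29 and 6.23 CPM in inflammation, and 8.63, 9.02, 9.12 and 5.89 CPM in homeostasis. The counts behind these levels ran from 85 to 305 per library. Resolution lay above inflammation in every library, and homeostasis overlapped both. Lifr rose 2.12-fold in resolution against inflammation (log2 fold change 1.08 ± 0.21 SE, adjusted p = 0.00119), the largest rise among the 9 genes in any of the 3 comparisons. The call held under all 23 alternatives (0.71 to 1.20), the lowest value being that with GC and length offsets. Against homeostasis the calls were fragile. Lifr was higher in resolution (0.55 ± 0.20 SE, adjusted p = 0.0287), but not with homeostasis 1 and 2 alone (0.42, 0.144), without homeostasis 4, resolution 1, resolution 3 or resolution 4 (highest adjusted p = 0.0993), or with GC and length offsets, where the sign turned (-0.07, 0.728). In inflammation it was lower (-0.54 ± 0.21 SE, adjusted p = 0.0470), a call that was lost in 13 of 23 alternatives, among them 9 of the 12 that left out 1 library (-0.65 to -0.38 over the 12, highest adjusted p = 0.179).

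Transcripts of Il6st, Osmr and Lifr are long, at 8.678, 5.491 and 9.655 kb. Resolution 2 was the lowest resolution library and inflammation 1 the lowest inflammation library for all 3 genes. Library by library, the deviation in level for each doubling of transcript length was 0.03, -0.03, 0.12 and 0.09 (log2) in resolution, -0.12, -0.05, 0.01 and 0.05 in inflammation, and 0.04, -0.02, -0.04 and -0.09 in homeostasis. Resolution 2 and inflammation 1 thus had the lowest length slopes of their groups, and the part of transcript length in the spread was not tested. With GC and length offsets the SE of Osmr in resolution against inflammation was 0.08 in place of 0.16. These offsets fit GC content and length together, so that change cannot be assigned to length alone. As given above, resolution 2 also lay apart from its group by GC content, which inflammation 1 did not.

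Il6ra encodes the IL-6 receptor chain (3:89864059 to 89913196, minus strand, protein-coding). It stood at 3.81, 2.99, 3.72 and 3.74 CPM in resolution, 2.51, 3.77, 2.99 and 4.24 CPM in inflammation, and 3.40, 3.76, 5.36 and 5.85 CPM in homeostasis, from 55 to 129 counts per library. The groups overlapped, with homeostasis 3 and 4 highest. The log2 fold change was -0.36 ± 0.22 SE in resolution against homeostasis (adjusted p = 0.186), -0.43 ± 0.22 SE in inflammation against homeostasis (0.137) and 0.08 ± 0.23 SE in resolution against inflammation (0.842). Both differences from homeostasis passed against homeostasis 3 and 4 alone (-0.64, adjusted p = 0.0300, and -0.70, adjusted p = 0.0300). Macrophages also express Il6ra, and their part in its level was not tested.

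Il11ra1 encodes the IL-11 receptor chain (4:41699989 to 41769474, plus strand, protein-coding). Its levels were 59.9, 58.1, 45.8 and 47.1 CPM in resolution, 68.8, 56.4, 60.4 and 53.5 CPM in inflammation, and 38.2, 27.5, 49.5 and 57.7 CPM in homeostasis. Homeostasis reached from the lowest value of all to the range of both other groups. Il11ra1 was 1.38-fold higher in inflammation than in homeostasis (log2 fold change 0.47 ± 0.18 SE, adjusted p = 0.0498), just inside the threshold. That call was lost in 8 of 23 alternatives, including the omission of inflammation 1, 2 or 3 or homeostasis 1 or 2 (highest adjusted p = 0.118) and homeostasis 3 and 4 alone (0.18, 0.398). Resolution against homeostasis gave 0.29 ± 0.18 SE (adjusted p = 0.191) and resolution against inflammation -0.18 ± 0.18 SE (0.507). With GC and length offsets the first of these passed (0.61, adjusted p = 3.68e-04), as it did without homeostasis 4 (0.46, 0.0343) and with homeostasis 1 and 2 alone (0.67, 0.00409). Il11ra2 and Gm13305 are near-identical copies elsewhere on chromosome 4, and the labels do not state how reads were divided among them, so the level of Il11ra1 is uncertain. Summed over the 3 genes, an alternative added after the data were seen, the log2 fold change in inflammation against homeostasis was 0.50 (adjusted p = 0.0338).

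**Figure D3:**
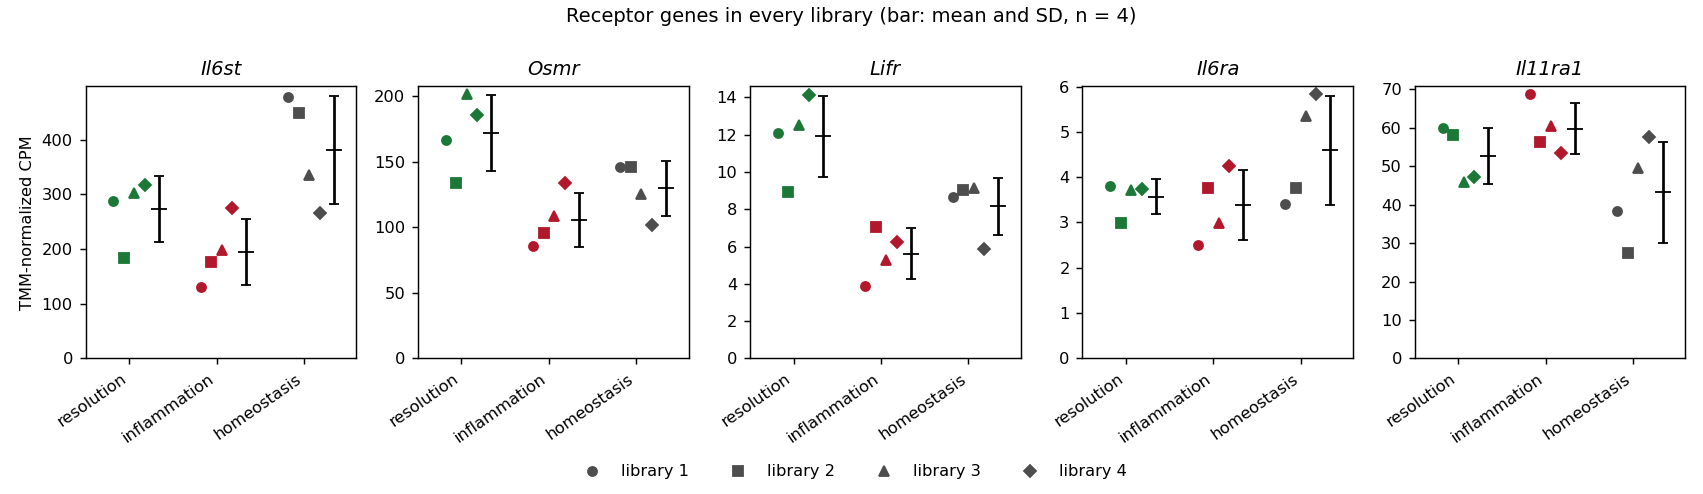
CPM of the 5 receptor genes in each library, with resolution, inflammation and homeostasis from left to right, a symbol for each library number, and a bar for the mean and SD (n = 4). For Osmr and Lifr the resolution libraries all lie above the inflammation libraries, and for Il6st homeostasis runs from 265 to 478 CPM.

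Counted over the 9 genes, 2 rose (Osmr and Lifr) and 1 fell (Il11) in resolution against inflammation, where 8.52% of all tested genes were called higher and 7.64% lower. In resolution against homeostasis 2 rose (Osmr and Lifr) and 1 fell (Il11), against 27.5% and 25.8% of all genes. In inflammation against homeostasis 2 rose (Il11 and Il11ra1) and 2 fell (Il6st and Lifr), against 19% and 18.3%. The shares of the family called against homeostasis were thus near or below the background of each comparison. The median log2 fold change of the 9 genes was 0.08 in resolution against inflammation, -0.06 in resolution against homeostasis and 0.04 in inflammation against homeostasis, beside 0.02, -0.01 and -0.01 for all tested genes. Both comparisons with homeostasis share its libraries, and each comparison shares a group with the others.

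**Figure D4:**
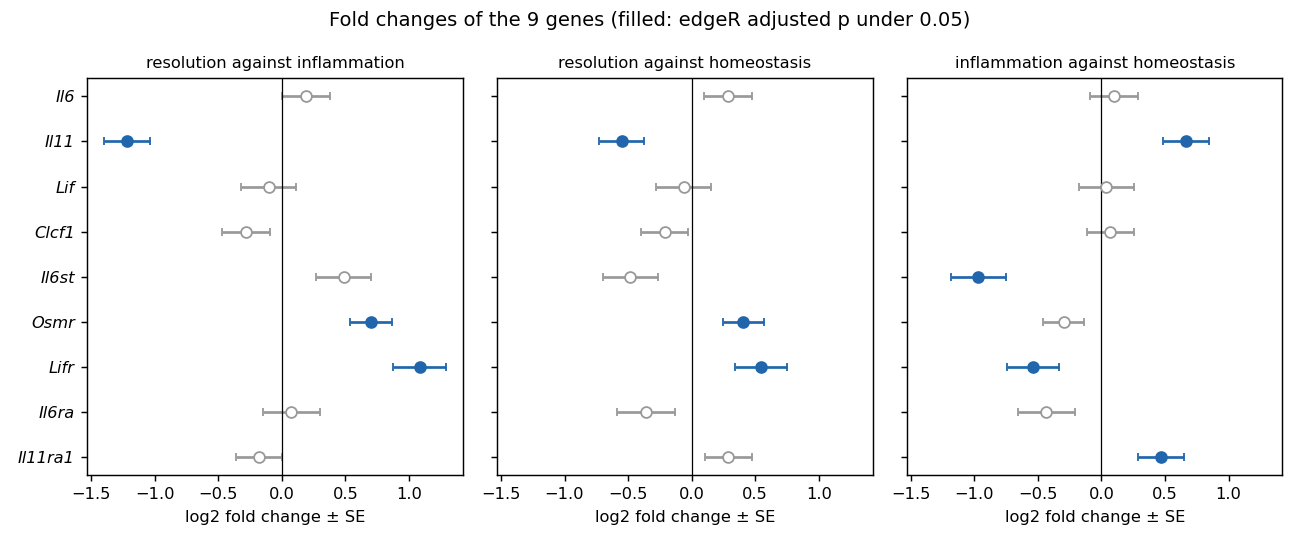
Log2 fold change with its SE for each of the 9 genes in the 3 comparisons, filled where the edgeR adjusted p was under 0.05. Il11 lies at -1.22 and Lifr at 1.08 in resolution against inflammation, and Il6st at -0.97 in inflammation against homeostasis.

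**Figure D5:**
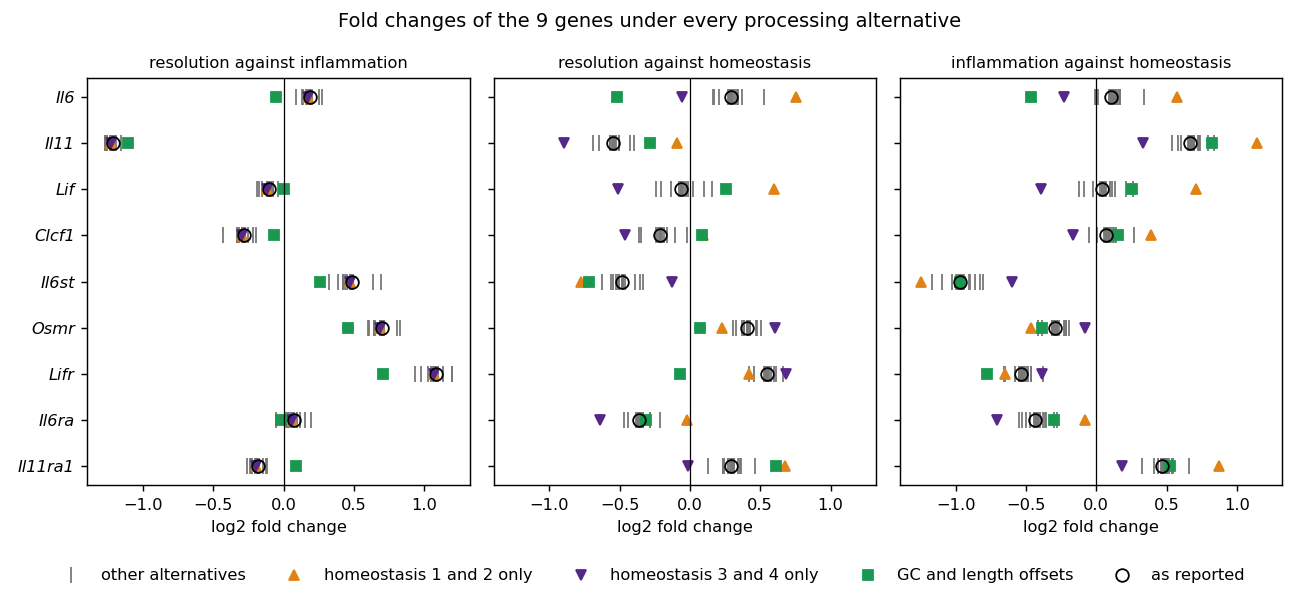
Log2 fold change of each gene as reported (open circles) and under each of 23 processing alternatives, of which the choice of homeostasis libraries and the GC and length offsets are marked. In resolution against inflammation the values of Il11, Osmr and Lifr stay on 1 side of 0, whereas in both comparisons with homeostasis Il6, Lif and Clcf1 fall on both sides.

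Further ligands and receptors of the family were counted as a list. Of 13 listed genes 8 were tested, of which 0 rose and 2 fell in resolution against inflammation, 0 rose and 3 fell in resolution against homeostasis, and 5 rose and 0 fell in inflammation against homeostasis. The shares over all tested genes in these comparisons were 8.52% higher and 7.64% lower, 27.5% and 25.8%, and 19% and 18.3%. The balance depended on the processing in both comparisons with homeostasis. In resolution against homeostasis 3 rose and 2 fell with GC and length offsets, and 3 rose and 1 fell with homeostasis 1 and 2 alone. In inflammation against homeostasis 1 rose and 1 fell with homeostasis 3 and 4 alone. At an unadjusted p under 0.05 in edgeR the same 3 counts of 0 were 0, 0 and 2, and DESeq2 gave 0 for each. Cntf and Ctf2 had 0 counts in all 12 libraries, and Il27, Il31 and Il31ra had 7, 1 and 11 counts in all. Osm, which encodes the ligand of the Osmr chain and is made by myeloid cells, had 3 counts over the resolution libraries, 110 over inflammation and 18 over homeostasis. Osm was therefore lower in resolution than in inflammation by a ratio of 34.7 (95% counting interval 11.6 to 171, edgeR adjusted p = 1.88e-04), and higher in inflammation than in homeostasis (log2 fold change 2.56 ± 0.59 SE, adjusted p = 0.00215). The interval is from pooled counts and holds no spread between libraries, and all 3 resolution counts came from resolution 4. Osm was thus lower and its receptor gene Osmr higher in resolution than in inflammation. The fall of Osm in resolution against homeostasis (adjusted p = 0.0450) was lost in 11 of the 22 alternatives that gave a value. Ebi3, whose product pairs with that of Il27 to form interleukin-27, had 0 counts in resolution, 119 in inflammation and 38 in homeostasis, so it was at least 37.5-fold lower in resolution than in inflammation, taking 3 counts summed over the 4 libraries as the limit (edgeR adjusted p = 1.63e-05). Its rise in inflammation against homeostasis (1.68 ± 0.46 SE, adjusted p = 0.00854) was lost with homeostasis 3 and 4 alone (1.26, 0.0961). The macrophage markers moved in the same order as Osm and Ebi3, and their part in these results was not tested.

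Crlf2, a listed gene whose product is known as part of the receptor for the cytokine TSLP and which was named after its values were seen, rose in inflammation against homeostasis (0.63 ± 0.23 SE, edgeR adjusted p = 0.0336). That call was lost with homeostasis 3 and 4 alone (0.26, 0.273). Cntfr, the receptor chain for ciliary neurotrophic factor, was at 0.798 ± 0.157 CPM in resolution and 1.79 ± 0.367 CPM in homeostasis (-1.16 ± 0.30 SE, adjusted p = 0.00312), a fall that was lost with homeostasis 1 and 2 alone (-0.92, 0.0542).

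Below the receptors, the kinase genes Jak1 and Jak2 rose in resolution against both other groups. Of 16 signal transducers, 2 rose and 0 fell in resolution against inflammation, 3 rose and 4 fell in resolution against homeostasis, and 2 rose and 2 fell in inflammation against homeostasis. The shares of all genes called higher and lower were 8.52% and 7.64%, 27.5% and 25.8%, and 19% and 18.3%. With GC and length offsets 5 rose and 0 fell, 7 rose and 2 fell, and 4 rose and 2 fell in the same 3 comparisons, so the balance in resolution against homeostasis turned. It also turned there with homeostasis 1 and 2 alone (4 rose, 3 fell) and with homeostasis 3 and 4 alone (5 rose, 3 fell). No transducer fell in resolution against inflammation at an unadjusted p under 0.05 (0 in edgeR) or with DESeq2 (0). Jak2, a kinase bound to the receptor tails, averaged 118 ± 27.5 CPM in resolution, 56.9 ± 8.52 CPM in inflammation and 49.1 ± 4.2 CPM in homeostasis. It rose against inflammation (log2 fold change 1.05 ± 0.16 SE, adjusted p = 1.35e-04) and against homeostasis (1.27 ± 0.16 SE, adjusted p = 2.66e-06), and with GC and length offsets the values were 0.75 and 0.74, both past the threshold. Jak1, the main kinase of this receptor family, averaged 598 ± 145 CPM in resolution, 375 ± 44.5 CPM in inflammation and 311 ± 59.99 CPM in homeostasis. Its rise against homeostasis held under all 23 alternatives (0.94 ± 0.18 SE, adjusted p = 1.71e-04). That against inflammation (0.67 ± 0.17 SE, adjusted p = 0.0132) was lost without resolution 3, resolution 4, inflammation 1 or inflammation 2 (highest adjusted p = 0.0677). Stat3, the main transcription factor of the pathway, was at 263 ± 24.0 CPM in resolution, 266 ± 30.5 CPM in inflammation and 346 ± 20.9 CPM in homeostasis. It was lower than homeostasis in both (-0.39 ± 0.12 SE, adjusted p = 0.0101, and -0.38 ± 0.12 SE, adjusted p = 0.0196, in that order), but not with GC and length offsets (-0.18, 0.0909, and -0.20, 0.0704). The call in inflammation was lost in 6 of 23 alternatives, the others being upper-quartile factors, the omission of inflammation 1, inflammation 2 or homeostasis 2, and homeostasis 3 and 4 alone (highest adjusted p = 0.0880).

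Negative regulators of JAK-STAT signalling moved both ways. Of 17 tested, 2 rose and 1 fell in resolution against inflammation, 3 rose and 4 fell in resolution against homeostasis, and 2 rose and 2 fell in inflammation against homeostasis. Of all genes 8.52% rose and 7.64% fell, 27.5% rose and 25.8% fell, and 19% rose and 18.3% fell in these comparisons. Inflammation against homeostasis gave 3 rises and 5 falls with GC and length offsets and 1 of each with homeostasis 1 and 2 alone, and resolution against homeostasis gave 4 rises and 2 falls with homeostasis 1 and 2 alone. Socs3, the feedback inhibitor that binds gp130, averaged 17.6 CPM in resolution, 21.9 CPM in inflammation and 25.2 CPM in homeostasis, and fell in resolution against homeostasis (-0.52 ± 0.18 SE, adjusted p = 0.0202). That call was lost with homeostasis 1 and 2 alone (-0.23, 0.324) and with GC and length offsets (-0.18, 0.187). Socs3 was named after its values were seen. Ptpn1, a tyrosine phosphatase, fell in resolution (52.1 ± 8.42 CPM) and in inflammation (65.0 ± 4.37 CPM) against homeostasis (96.6 ± 9.11 CPM), with log2 fold changes of -0.89 ± 0.13 SE (adjusted p = 1.66e-05) and -0.57 ± 0.13 SE (adjusted p = 0.00225). Socs5 rose in resolution against homeostasis (1.03 ± 0.19 SE, adjusted p = 1.74e-04) under all 23 alternatives. Socs4 did so as well (1.03 ± 0.22 SE, adjusted p = 5.36e-04), but with GC and length offsets its log2 fold change was 0.03 (adjusted p = 0.857). Ptpn6, a phosphatase mainly of blood cells, stood at 1.05 ± 0.400, 6.59 ± 2.05 and 3.64 ± 1.40 CPM in resolution, inflammation and homeostasis, in the same order as the macrophage markers, and fell in resolution against inflammation (-2.65 ± 0.32 SE, adjusted p = 9.87e-06).

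Genes known to be induced by STAT3 moved both ways. Of 28 tested among 30 listed, 2 rose and 5 fell in resolution against inflammation, 6 rose and 8 fell in resolution against homeostasis, and 4 rose and 6 fell in inflammation against homeostasis, beside 8.52% and 7.64%, 27.5% and 25.8%, and 19% and 18.3% of all genes. With GC and length offsets the balance turned in each comparison, to 5 rises and 3 falls, 8 rises and 6 falls, and 6 rises and 4 falls. With homeostasis 1 and 2 alone, where 30 were tested, 9 rose and 7 fell in resolution and 9 rose and 4 fell in inflammation. Serpina3n, an acute-phase protease inhibitor, was at 477 ± 42.0 CPM in resolution, 356 ± 34.99 CPM in inflammation and 127 ± 14.7 CPM in homeostasis. It rose against homeostasis in resolution (1.91 ± 0.13 SE, adjusted p = 5.24e-10) and in inflammation (1.49 ± 0.13 SE, adjusted p = 3.54e-08). Hif1a, the oxygen-sensing transcription factor, rose in resolution and in inflammation against homeostasis (1.51 ± 0.15 and 1.13 ± 0.15 SE), with 0.76 and 0.71 under GC and length offsets. Saa3, an acute-phase protein, rose in inflammation against homeostasis (1.47 ± 0.24 SE, adjusted p = 1.11e-04). Over the 23 alternatives its value ran from 0.98 to 2.27, the highest being that against homeostasis 1 and 2 alone. Myc, a growth-promoting transcription factor, fell to 27.8 ± 4.44 CPM in resolution, against 47.1 ± 2.13 CPM in inflammation (-0.76 ± 0.15 SE, adjusted p = 0.00154) and 64.5 ± 11.4 CPM in homeostasis (-1.22 ± 0.15 SE, adjusted p = 1.66e-06). Lbp, the lipopolysaccharide binding protein, fell in resolution against inflammation (-0.66 ± 0.16 SE, adjusted p = 0.00685) and against homeostasis (-1.02 ± 0.16 SE, adjusted p = 2.16e-05).

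Among 23 regulators of Il6 transcription and mRNA stability, 1 rose and 3 fell in resolution against inflammation, 5 rose and 11 fell in resolution against homeostasis, and 1 rose and 10 fell in inflammation against homeostasis. The shares of all genes were 8.52% higher and 7.64% lower, 27.5% and 25.8%, and 19% and 18.3%. With GC and length offsets 0 rose and 2 fell, 3 rose and 12 fell, and 4 rose and 11 fell in the same order. With the replicate number as a block the count in resolution against inflammation was 0 rises and 2 falls. Il17ra, the receptor for interleukin-17, which stimulates Il6 in fibroblasts, fell in resolution (22.1 ± 4.71 CPM) and in inflammation (25.5 ± 1.24 CPM) against homeostasis (51.2 ± 6.34 CPM), with log2 fold changes of -1.21 ± 0.15 SE (adjusted p = 2.44e-06) and -1.01 ± 0.15 SE (adjusted p = 4.05e-05). Nfkb1, a subunit of the transcription factor NF-kB, fell in inflammation (163 ± 22.2 CPM) against homeostasis (267 ± 12.4 CPM), by -0.71 ± 0.12 SE (adjusted p = 1.76e-04). Nfkb2 and the inhibitor gene Nfkbia fell in the same comparison (-0.94 ± 0.18 and -0.84 ± 0.16 SE), with -0.50 and -0.44 against homeostasis 1 and 2 alone. Jun, a component of AP-1, stood at 42.7 ± 5.99 CPM in resolution and 88.4 ± 9.84 CPM in homeostasis (-1.05 ± 0.13 SE, adjusted p = 2.55e-06). Adam10, a protease that can shed the IL-6 receptor, rose in resolution against homeostasis (1.02 ± 0.15 SE, adjusted p = 1.64e-05), with 0.35 under GC and length offsets (adjusted p = 0.00285). The level of Il6 itself, as given above, passed in none of the 3 comparisons.

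The genes whose log2 CPM over the 12 libraries was most like that of a member were read as a description, since the points share libraries and fall into 3 groups. Nearest to Il11 were Slc11a1, a metal transporter of phagocytes (Pearson r = 0.98), Cd14, a co-receptor for lipopolysaccharide on monocytes and macrophages (r = 0.97), and Sdk1 (r = 0.97). Slc11a1 averaged 3.27 CPM in resolution, 13.4 CPM in inflammation and 6.32 CPM in homeostasis. Nearest to Osmr were Klf10, Ugdh and Otud7b (r = 0.98, 0.97 and 0.96), and nearest to Lifr were Fam124a, Synm and Bmp5 (r = 0.95, 0.93 and 0.93). Bmp5, a bone morphogenetic protein, averaged 18.1 CPM in resolution, 5.03 CPM in inflammation and 7.93 CPM in homeostasis. Lif was closest to Adora2b, Slc15a3 and Ttc39c (r = 0.95, 0.93 and 0.92), and Clcf1 to Fbxo21, Gm31028 and Skiv2l (r = 0.96, 0.96 and 0.95). The nearest genes to Il6 (Gm14488, LOC105247228 and Gm35048, r = 0.91, 0.89 and 0.87) had low levels and gave the loosest match of the 6 members compared.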

How the data were processed

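Poly(A) RNA of 12 libraries was sequenced, per the labels' protocols. The authors deposited a table of estimated counts per gene symbol, of which 1.43% of values were not whole. The submitters' processing notes name the build GRCm38.p3. No source used here names the aligner, the counter, the annotation or whether strand was used. Of 36930 rows, 13 without a value were left out and 42 with a repeated symbol were summed, which left 36875 symbols.

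Counts were rounded and tested with edgeR 4.0.16 (limma 3.58.1, R 4.3.3): filterByExpr, TMM factors and the robust quasi-likelihood test with group as the only term, on all 12 libraries. Benjamini-Hochberg adjustment ran over 15049 genes at a threshold of 0.05. DESeq2 1.42.0 served as an alternative. The steps were tested on simulated counts. Lengths and GC content were those of the longest GENCODE vM21 basic transcript. A limit of 3 counts equalled 0.0858 to 0.166 CPM per library, and covers counting error only. Within groups the reduced chi-square between libraries was 10.2 to 114, so no pair agreed within sampling noise.

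All 9 members were named, with up to 4 genes per pathway list and comparison that had the smallest adjusted p among those that passed, and the 3 genes most correlated with each of 6 members (log2 CPM, prior count of 2). Members, lists and the homeostasis splits were chosen with earlier results of these data known. Alternatives changed the scaling, the tool, the filter, the libraries, the rounding and the replicate block. The GC and length offsets and the sum of Il11ra1 with its copies were added after the data were seen. Replicate numbers were checked by correlating deviations from the group means. Same-numbered resolution and inflammation libraries correlated at 0.126 to 0.214 in all 4 pairs, and 6 of the 8 libraries matched best with their own number. Different-numbered libraries over the 3 groups correlated at -0.342 to 0.355, with 9 of 36 pairs over 0.1. Over all groups 7 of 24 best matches were with the own number. By the rule used (every same-numbered pair over 0.1) resolution and inflammation were taken as paired, a weak hint from the data that no label states. The fit without the block was kept, so the adjusted p-values given do not use this pairing. A planned count of protein motifs was not run. Some listed genes that the rule names are not reported here.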

Additional observations from a re-analysis of the deposited data

Results flagged for a closer look

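Of the 27 sets of 4 libraries, 1 for each gene and group, 2 held a library whose gap to its nearest neighbour took up more of the whole range than Dixon's 95% critical value allows, and chance alone flags about 5% of such sets. Il6ra in resolution 2, at 2.99 CPM, lay below the other resolution libraries at 3.72 to 3.81 CPM, with a gap of 0.889 of the range. Lifr in homeostasis 4, at 5.89 CPM, lay below the other homeostasis libraries at 8.63 to 9.12 CPM, with a gap of 0.849 of the range. Without homeostasis 4, Lifr in resolution against homeostasis had a log2 fold change of 0.42 (edgeR adjusted p = 0.0955).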

How the results depend on the processing

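In resolution against inflammation the calls of Il11, Osmr and Lifr held under all 23 alternatives. Over all members and comparisons, 534 of 621 alternative values kept direction and call, 41 lost the call, 20 gained one and 26 turned sign. The cause of these changes was not tested. Members called in inflammation against homeostasis numbered 4, but 2 with only the 2 groups in the fit, 2 with the replicate block, 7 with homeostasis 1 and 2 alone, 2 with homeostasis 3 and 4 alone, and 2 to 4 when 1 library was left out. With homeostasis 3 and 4 alone the 4 calls, of Il11, Il11ra1, Il6st and Lifr, were all lost, and the 2 genes called were Lif and Il6ra. In resolution against homeostasis the members called numbered 3, but 6 with homeostasis 3 and 4 alone and 1 to 3 when 1 library was left out. With GC and length offsets the calls of Il11, Osmr and Lifr in that comparison were lost, while Il6, Il6st and Il11ra1 were called. In resolution against inflammation, leaving out 1 library gave 9 to 33 pathway genes (18 with all) and 1242 to 4191 genes overall (2431 with all). The highest counts came without resolution 2, and those more than 1.5 times lower came without resolution 1, 3 or 4 or inflammation 1 or 2.

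Log2 fold changes that turned sign were those of members that had not passed, apart from Lifr. With homeostasis 3 and 4 alone, inflammation against homeostasis gave -0.23 for Il6, -0.40 for Lif and -0.17 for Clcf1, and resolution against homeostasis gave -0.059 for Il6 and -0.014 for Il11ra1. With homeostasis 1 and 2 alone, resolution against homeostasis gave 0.60 for Lif and 0.091 for Clcf1. The GC and length offsets moved the median of all genes by 0.14 in resolution against homeostasis. They gave -0.52 for Il6, 0.26 for Lif, 0.089 for Clcf1 and -0.071 for Lifr in that comparison, -0.46 for Il6 in inflammation against homeostasis, and -0.058 for Il6, 0.0056 for Lif, -0.018 for Il6ra and 0.089 for Il11ra1 in resolution against inflammation. Leaving out 1 library gave -0.0080 to 0.34 for Il6, -0.12 to 0.26 for Lif and -0.053 to 0.27 for Clcf1 in inflammation against homeostasis, -0.24 to 0.16 for Lif in resolution against homeostasis, and -0.053 to 0.20 for Il6ra in resolution against inflammation.

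Replicate numbers did not pair homeostasis with the other groups: same-numbered libraries correlated at -0.23 to -0.0028 in their deviations with resolution and at -0.21 to 0.080 with inflammation. In resolution against inflammation, where the numbers were taken as paired on the hint given above, the replicate block changed no call of a member. That block was fitted on all 12 libraries and so also joined the same-numbered homeostasis libraries. A paired fit of resolution and inflammation alone was not run, so its effect on the calls is not known. With the replicate block Lif in resolution against homeostasis was 0.019, and Lifr and Il11ra1 in inflammation against homeostasis and Osmr in resolution against homeostasis were no longer called, nor was Crlf2 in inflammation against homeostasis. It gave 31, 46 and 15 pathway genes and 5053, 7589 and 1898 genes overall for inflammation against homeostasis, resolution against homeostasis and resolution against inflammation. Depth limits Il6ra most, at 55 to 129 counts per library.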
